A study of Rattus norvegicus with 60 samples.

Results

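Kidney cortex from wild-type Dahl salt-sensitive rats (SS) that had eaten a high-salt diet of 4.0% NaCl for 7 days (HS7) was compared with cortex from SS rats under control conditions (LS). The comparison used 10 of the 60 libraries of the study, taken by their titles, with 5 at HS7 and 5 at LS. Both groups carry an intact Nox4 gene, and the only stated difference between them is the diet. Values are also given beside them for SS cortex after 21 days on the same diet (HS21), for HS7 and LS cortex of a NOX4 knockout line derived from SS (NOX4), and for HS7 and LS outer medulla of SS, with 5 libraries each. The labels give no sex, age, time of tissue collection or salt content of the control diet. They also do not say whether the libraries of a group came from separate animals, so p-values measure the spread between libraries, which may be in part technical.

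The Dahl salt-sensitive rat becomes hypertensive and develops kidney damage when it eats salt. Salt loading is known to lower cyclooxygenase 2, an enzyme of prostaglandin synthesis, in the macula densa and cortical thick ascending limb. The bulk of the cortex is proximal tubule, whose first segments reabsorb glucose, amino acids and phosphate and whose last segment, segment 3, reaches into the outer medulla. Injured proximal tubules are known to make lipocalin 2, kidney injury molecule 1, clusterin and osteopontin. The study as a whole concerns NADPH oxidase 4 and metabolic stress in this kidney.

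Library totals ran from 12.6 to 19.3 M counts at HS7 and from 13.4 to 16.6 M counts at LS. When each library was thinned to 10 M counts, 14092 to 17546 genes had a count at HS7 and 14861 to 17485 genes at LS. The totals, the genes at 10 M counts and the share of mitochondrially encoded counts (14.75% ± 1.33 at HS7 and 14.36% ± 1.01 at LS, SD, n = 5 each) gave exact permutation p of 0.913, 0.897 and 0.619, two-sided (adjusted p = 0.913 for each). A library was named low-complexity when at least 10 of the 1625 genes with a cortex median of 2 to 5 CPM (counts scaled to the size of the library) had no count in it. HS7 replicates 1 and 4 met this with 165 and 51 such genes, and LS replicates 2, 3 and 4 with 53, 54 and 12, so that each group held such libraries. Markers of proximal tubule segments 1 and 2 summed to 27320 to 35380 CPM per library at HS7 and 24350 to 31220 CPM at LS, as the tissue label implies. The score of segment 3, the mean log2 CPM of its 11 markers, was 7.45, 7.20, 6.34, 6.26 and 6.09 in HS7 replicates 1 to 5 and lay between 7.10 and 7.34 in the LS libraries. HS7 replicates 3, 4 and 5 thus lay below all LS libraries in this score while replicates 1 and 2 did not. In bulk tissue, fewer cells of a type and less RNA per cell cannot be told apart.

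After 7 days of salt, SS cortex held less Ptgs2 transcript, the gene of cyclooxygenase 2, and more C4b and Lcn2 transcript, the genes of complement C4 and lipocalin 2, while proximal tubule transporter genes changed in both directions. Whether a change passed the test differed between fits, as given below. In a fit over all 30 cortex libraries, edgeR's quasi-likelihood test with Benjamini-Hochberg adjustment called 341 of 15179 genes at an adjusted p under 0.05 (2.25%), 178 of them higher at HS7 (1.17%) and 163 lower (1.07%). All adjusted p-values below come from this test unless another is named. The median size of a called log2 fold change was 0.58, and 87 of the 341 exceeded 1. The libraries of the groups did not overlap for 268 genes (1.77% of those tested), 155 with HS7 above LS (1.02%) and 113 with HS7 below (0.744%). An unadjusted p under 0.05 was found for 2975 genes (19.6%).

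**Figure D1:**
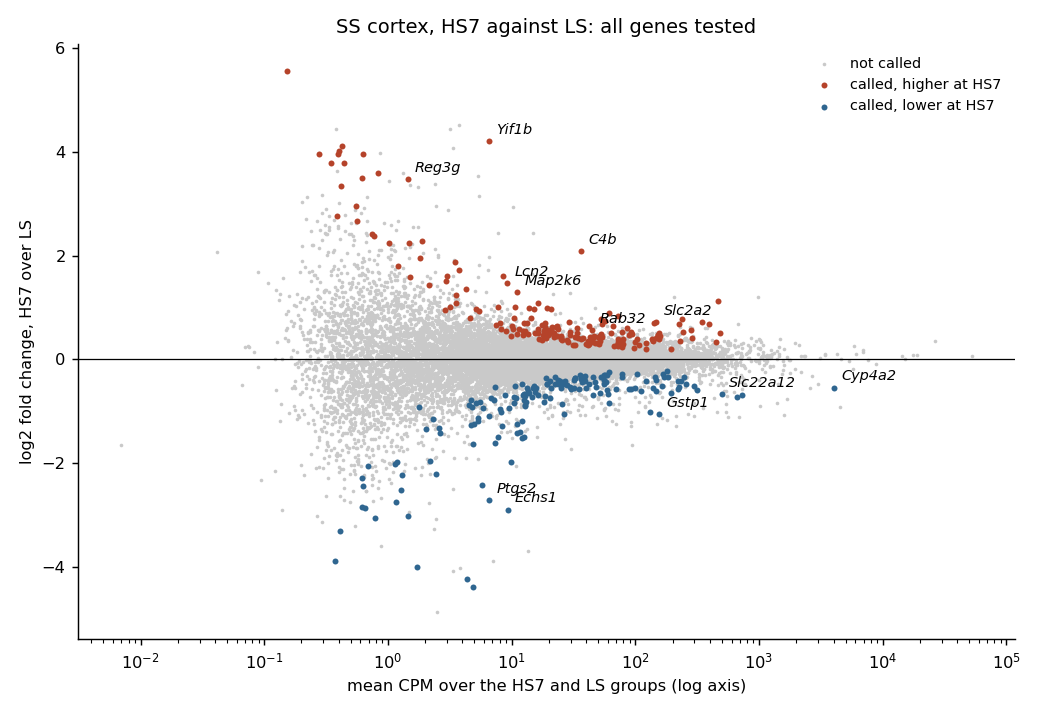
Log2 fold change of HS7 over LS in SS cortex against the mean CPM of both groups (log axis) for the 15179 genes tested; red points are the 178 genes called higher at HS7, blue points the 163 called lower, and grey points were not called. Called genes above 100 CPM mostly changed by less than 1 on the log2 scale, while the called genes beyond 3 in either direction all had a mean under 10 CPM.

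The number of calls differed between fits. A fit of the compared groups alone called 1 gene, C4b, of 13940 (0.00717%), with 1151 genes at an unadjusted p under 0.05. Without the low-complexity libraries, which leaves 3 libraries at HS7 and 2 at LS, 13 genes were called of 15618 (0.0832%), and 340 of the 341 genes kept the sign of their change. The 341 genes were chosen with these same libraries, so the kept signs are no separate test of them. With library quality weights in limma voom 6 genes were called, and DESeq2 called 937 of 17719 (5.29%). Leaving out any 1 of the 10 libraries gave between 190 (without LS replicate 4) and 819 calls (without LS replicate 5), and also 762 without HS7 replicate 1, 773 without HS7 replicate 2 and 228 without HS7 replicate 4. In all 10 of these fits 98 genes stayed called, 57 higher and 41 lower. The genes Rab32, Slc22a12 and Itgb6 were called both without the low-complexity libraries and with quality weights. The authors' deposited table has an adjusted p under 0.05 for 107 of 19751 genes (0.542%), 53 higher and 54 lower at HS7, and 76 of them are among the 341.

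**Figure D2:**
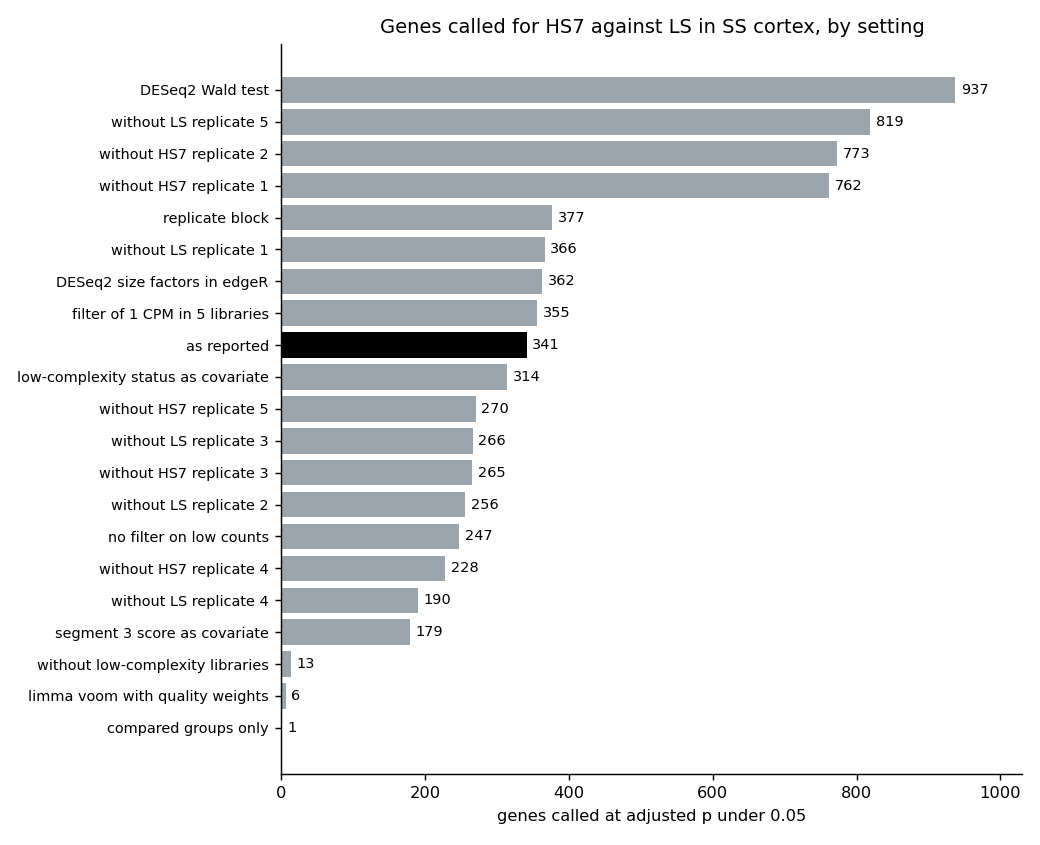
Number of genes called at an adjusted p under 0.05 for HS7 against LS in SS cortex (horizontal axis, from 0) under each setting (vertical axis); the black bar is the reported fit. Counts run from 1 in the fit of the compared groups alone to 937 with DESeq2, with 341 as reported.

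Ptgs2 (ENSRNOG00000002525, chromosome 13, 67351087 to 67359335, plus strand) encodes cyclooxygenase 2, and it fell. It had 0, 3.63, 2.81, 0 and 2.18 CPM in HS7 replicates 1 to 5, against 11.7, 15.3, 5.05, 16.0 and 9.19 CPM in LS replicates 1 to 5. The groups did not overlap, and the libraries without a count were the low-complexity ones. The log2 fold change was -2.71 ± 0.55 (SE; adjusted p = 0.0111), and -1.86 ± 0.32 without the low-complexity libraries (adjusted p = 0.0271), where Ptgs2 was still called. It was not called in the fit of the compared groups alone (adjusted p = 0.352) or in limma voom with quality weights (adjusted p = 0.0676). In the authors' deposited table its adjusted p is 0.378.

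Promoter sequences are shown for the genes with the smallest p in the eicosanoid list and in the antioxidant list and for the gene with the smallest p of all, Ptgs2, Gstp1 and Rab32, as the 250 bases before the annotated start in RefSeq's GRCr8 annotation. They lie at chr13:64713813-64714062 on the plus strand for Ptgs2, chr1:210769706-210769955 on the minus strand for Gstp1 and chr1:6781259-6781508 on the minus strand for Rab32. Capitals mark matches to an E-box (CACGTG) in Ptgs2 and to an antioxidant element (TGACNNNGC) in Gstp1.
Ptgs2: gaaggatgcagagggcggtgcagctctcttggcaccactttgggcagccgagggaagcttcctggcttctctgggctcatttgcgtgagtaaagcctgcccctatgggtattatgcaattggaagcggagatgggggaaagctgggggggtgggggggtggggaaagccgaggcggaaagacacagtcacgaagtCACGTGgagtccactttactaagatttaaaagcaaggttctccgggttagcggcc
Gstp1: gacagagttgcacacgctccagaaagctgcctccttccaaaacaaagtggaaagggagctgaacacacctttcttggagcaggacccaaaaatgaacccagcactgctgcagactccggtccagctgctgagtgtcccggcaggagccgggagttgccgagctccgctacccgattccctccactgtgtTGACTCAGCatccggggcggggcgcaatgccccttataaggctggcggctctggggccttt
Rab32: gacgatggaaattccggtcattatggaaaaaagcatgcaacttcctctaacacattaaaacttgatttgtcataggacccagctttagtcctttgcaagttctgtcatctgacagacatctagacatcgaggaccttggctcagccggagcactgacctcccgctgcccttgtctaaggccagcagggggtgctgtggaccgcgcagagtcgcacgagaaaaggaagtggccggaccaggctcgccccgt
The E-box of Ptgs2 begins 55 bases before the start, and the element of Gstp1 begins 61 bases before the start. The letters CACGTG contain the hypoxia element ACGTG on each strand. The 2 matches to that element in Ptgs2 therefore come with the E-box and are not separate finds. Among 33469 rat promoters of the same length, searched on both strands, 5.59% hold the E-box, 16.6% the hypoxia element and 10.1% the antioxidant element. The windows were also searched for the glucocorticoid response element (found in 0.012% of promoters), the sterol element (0.23%), the interferon element (3.41%), the DR1 element (0.0508%), the HNF1 element (0.00299%) and the CArG box (0.0299%), without a match. A match describes letters and does not show that a factor binds there.

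Of the angiotensin genes, the precursor gene Agt averaged 38.4 ± 33.2 CPM at HS7 and 73.9 ± 16.3 CPM at LS (log2 fold change -0.95 ± 0.45, adjusted p = 0.240), and the receptor gene Agtr1a 64.1 ± 10.2 CPM at HS7 and 52.9 ± 15.2 CPM at LS (0.28 ± 0.14, adjusted p = 0.291). The SD of Agt at HS7 was close to its mean.

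Of 20 prostaglandin and eicosanoid genes 2 fell, Ptgs2 and Cyp4a2, and none rose, where 1.07% of all genes tested fell. The list median was 0.0045 on the log2 scale, beside 0.0051 over all genes tested. Cyp4a2 encodes an omega-hydroxylase that makes 20-HETE, an arachidonic acid product of the proximal tubule and renal vessels. It had 3526, 3971, 2890, 2547 and 3557 CPM in HS7 replicates 1 to 5, against 4818, 4732, 4906, 4653 and 4937 CPM in LS replicates 1 to 5, without overlap. Its log2 fold change was -0.54 ± 0.13 (adjusted p = 0.0224), with -0.41 and an adjusted p of 0.0906 under the segment 3 covariate. The related Cyp4a8 averaged 456 ± 73.4 CPM at HS7 and 627 ± 105 CPM at LS (-0.46 ± 0.14, adjusted p = 0.0670). Of 18 endothelin and nitric oxide genes 1 rose, where 1.17% of all genes tested rose. It was Calcrl, whose product forms the receptor of adrenomedullin, with 25.5 ± 3.24 CPM at HS7 and 18.8 ± 2.28 CPM at LS (0.44 ± 0.10, adjusted p = 0.0173).

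**Figure D3:**
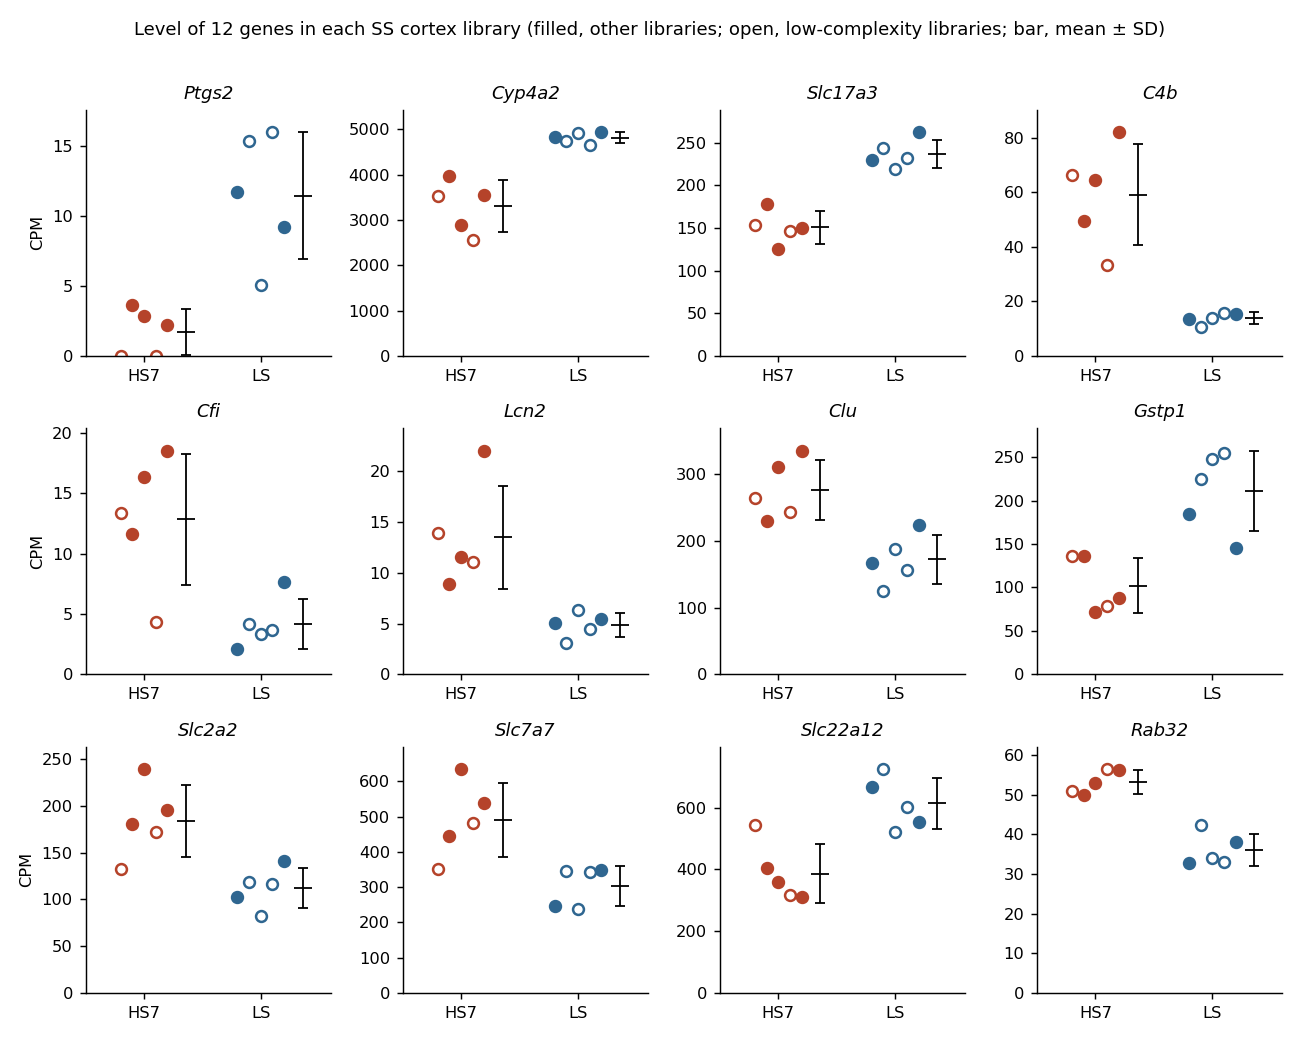
CPM of 12 genes in each SS cortex library, with HS7 libraries in red on the left of each panel and LS libraries in blue on the right, replicates 1 to 5 from left to right; open circles are low-complexity libraries and bars give the mean ± SD of 5 libraries. Ptgs2, Cyp4a2, Slc17a3 and Gstp1 lie lower at HS7 without overlap, C4b, Lcn2, Clu, Slc7a7 and Rab32 higher without overlap, and Cfi, Slc2a2 and Slc22a12 overlap in 1 or more libraries.

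The complement component C4 gene rose. C4b (ENSRNOG00000030729, chromosome 20, 4302344 to 4316715, minus strand) had 66.4, 49.6, 64.7, 33.2 and 82.1 CPM in HS7 replicates 1 to 5, against 13.6, 10.7, 14.0, 15.9 and 15.4 CPM in LS replicates 1 to 5. The lowest HS7 library held more than the highest LS library. The log2 fold change was 2.09 ± 0.35 (adjusted p = 0.00405), and C4b was the gene still called in the fit of the compared groups alone (adjusted p = 0.00132). Without the low-complexity libraries it was 2.17 ± 0.57 (adjusted p = 0.154), and in limma voom with quality weights 2.19 (adjusted p = 0.131), not called in either. C4b overlaps the annotated gene C4a, a near copy, whose reads the counting could split. C4a averaged 166 ± 76.8 CPM at HS7 and 133 ± 40.5 CPM at LS (0.32 ± 0.24, adjusted p = 0.490).

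Of 29 complement and coagulation genes 3 rose and none fell, where 1.17% of all genes tested rose. The median log2 fold change of the list was 0.26. Cfi, the gene of the protease that inactivates C4 and C3 fragments, had 13.4, 11.6, 16.3, 4.34 and 18.5 CPM in HS7 replicates 1 to 5, against 2.09, 4.20, 3.37, 3.68 and 7.62 CPM in LS replicates 1 to 5. HS7 replicate 4 lay below LS replicate 5, and the other HS7 libraries lay above all LS libraries. The log2 fold change was 1.61 ± 0.34 (adjusted p = 0.0134). Hc, the gene of complement component 5, averaged 181 ± 34.3 CPM at HS7 and 127 ± 27.4 CPM at LS (0.50 ± 0.14, adjusted p = 0.0490). It kept its call in 3 of 10 fits that left out a library, while C4b and Cfi kept theirs in all 10. With the segment 3 covariate 2 of the 3 stayed called, and without the low-complexity libraries none.

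Of 28 tubular injury genes 2 rose and 1 fell, where 2.25% of all genes tested were called. The list median was 0.22, and 22 had a positive log2 fold change, beside 7737 of all 15179 genes tested. Lcn2, the gene of lipocalin 2, had 13.9, 8.95, 11.5, 11.05 and 22.1 CPM in HS7 replicates 1 to 5, against 5.03, 3.08, 6.32, 4.51 and 5.5 CPM in LS replicates 1 to 5. The groups did not overlap, and the log2 fold change was 1.46 ± 0.31 (adjusted p = 0.0144). Without the low-complexity libraries it was 1.425 ± 0.485 and not called (adjusted p = 0.262), nor was Lcn2 called in limma voom with quality weights (adjusted p = 0.237). Clu, the gene of clusterin, a chaperone secreted by injured tubules, had 265, 230, 311, 243 and 336 CPM in HS7 replicates 1 to 5 and 168, 126, 188, 157 and 225 CPM in LS replicates 1 to 5. The lowest HS7 library was just above the highest LS library (0.68 ± 0.18, adjusted p = 0.0368).

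The keratin gene Krt19, a marker of collecting duct and of injured epithelium, fell, with 6.55 ± 1.74 CPM at HS7 and 15.5 ± 6.62 CPM at LS (-1.24 ± 0.31, adjusted p = 0.0345). Its log2 fold change was -0.42 ± 0.42 without the low-complexity libraries, and it overlaps the annotated Krt14 on the same strand. Havcr1, the gene of kidney injury molecule 1, averaged 41.8 ± 15.3 CPM at HS7 and 15.0 ± 5.37 CPM at LS without overlap of libraries, but did not pass the test (1.47 ± 0.44, adjusted p = 0.0649). The osteopontin gene Spp1 averaged 1361 ± 417 CPM at HS7 and 594 ± 243 CPM at LS (1.197 ± 0.35, adjusted p = 0.0593). Vim, the gene of the intermediate filament vimentin, averaged 128 ± 25.8 and 86.5 ± 14.4 CPM (0.57 ± 0.16, adjusted p = 0.0558). In contrast, Sox9, a transcription factor of tubular repair, averaged 17.1 ± 9.22 CPM at HS7 and 34.6 ± 2.92 CPM at LS (-1.02 ± 0.30, adjusted p = 0.0575), with every HS7 library below every LS library. With the segment 3 covariate none of the 28 injury genes was called, and none was called without the low-complexity libraries.

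Of 16 tested genes of the major histocompatibility complex and antigen presentation 2 rose, both of class II, and none fell, where 1.17% of all genes tested rose. All 16 had a positive log2 fold change (median 0.30), beside 7737 of all 15179 genes tested (median 0.0051). RT1-Da, a class II alpha chain, had 245, 236, 317, 270 and 361 CPM in HS7 replicates 1 to 5, against 175, 183, 196, 181 and 255 CPM in LS replicates 1 to 5. LS replicate 5 lay above HS7 replicates 1 and 2, and the other LS libraries lay below all HS7 libraries (0.53 ± 0.12, adjusted p = 0.0220). RT1-Bb, a class II beta chain, averaged 177 ± 42.9 CPM at HS7 and 128 ± 18.2 CPM at LS (0.47 ± 0.12, adjusted p = 0.0396). Reads of these polymorphic genes may be shared among relatives of the family. With the segment 3 covariate the list median was 0.09 and none was called.

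None of 17 macrophage genes and none of 11 lymphocyte genes passed the test, with medians of 0.28 and 0.46. Adgre1, a macrophage surface receptor gene, averaged 25.5 ± 3.64 CPM at HS7 and 18.8 ± 5.07 CPM at LS (0.44 ± 0.21, adjusted p = 0.240). The summed macrophage markers ran from 551 to 816 CPM at HS7 and from 496 to 615 CPM at LS, so the ranges overlap, and their part in the higher class II transcripts was not tested. None of 25 chemokine, cytokine and adhesion genes was called. The chemokine gene Ccl2 averaged 4.82 ± 1.94 CPM at HS7 and 2.13 ± 1.86 CPM at LS (1.16 ± 0.52, adjusted p = 0.213).

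Of 29 tested cell cycle genes 1 rose and none fell, where 1.17% of all genes tested rose. A positive log2 fold change was found for 27 of the 29 (median 0.36), beside 7737 of all 15179 genes tested. Mcm6, a subunit of the replicative helicase, had 12.6, 14.1, 14.0, 15.5 and 15.5 CPM in HS7 replicates 1 to 5, against 8.45, 5.25, 5.54, 8.19 and 8.06 CPM in LS replicates 1 to 5. The groups did not overlap (1.01 ± 0.27, adjusted p = 0.0439). The list summed to 856 to 921 CPM at HS7 and 563 to 770 CPM at LS. Its most abundant member, the cyclin D1 gene Ccnd1, averaged 442 ± 22.8 CPM at HS7 and 291 ± 95.5 CPM at LS (0.60 ± 0.23, adjusted p = 0.144). The mitotic kinase gene Cdk1 averaged 8.80 ± 2.56 and 3.55 ± 1.71 CPM without overlap (1.303 ± 0.52, adjusted p = 0.156). In the fit with the segment 3 covariate the list median was 0.19, and without the low-complexity libraries it was 0.29. The cell cycle genes Cdk4 (0.36 ± 0.08, adjusted p = 0.0155) and Rbl1 (0.96 ± 0.21, adjusted p = 0.0156) are outside the list and were called higher. Without the low-complexity libraries neither was called (adjusted p = 0.0880 and 0.401). Cdt1, also outside the list, is given at the end.

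Proximal tubule genes changed in opposite directions by transporter. Of 20 markers of segments 1 and 2, 2 rose and none fell (median 0.23), where 1.17% of all genes tested rose. Slc2a2, the basolateral glucose transporter, had 133, 180, 240, 173 and 196 CPM in HS7 replicates 1 to 5, against 102, 119, 81.8, 117 and 141 CPM in LS replicates 1 to 5. Only HS7 replicate 1 lay below the highest LS library (0.72 ± 0.13, adjusted p = 0.00628). Slc7a7, a subunit of the basolateral exporter of cationic amino acids, had 350, 445, 635, 481 and 540 CPM in HS7 replicates 1 to 5 and 246, 345, 238, 344 and 347 CPM in LS replicates 1 to 5. HS7 lay above LS without overlap, by a narrow margin (0.69 ± 0.15, adjusted p = 0.0165). Both stayed called whichever library was left out, and Slc2a2 was also called with quality weights. Of the listed apical transporter genes, Slc6a19 for neutral amino acids (0.61 ± 0.17, adjusted p = 0.0543) and Slc5a2 for glucose (0.60 ± 0.17, adjusted p = 0.0573) missed the threshold. Slc7a9, an apical amino acid transporter gene outside the list, was called higher. It averaged 339 ± 54.9 CPM at HS7 and 229 ± 41.9 CPM at LS, with overlap (0.57 ± 0.12, adjusted p = 0.0144). Without the low-complexity libraries Slc7a9 was not called (adjusted p = 0.211).

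Of 15 organic anion and cation transporters 2 fell and none rose (median -0.29), where 1.07% of all genes tested fell. Slc22a12 (ENSRNOG00000021108, chromosome 1, 221910785 to 221919301, minus strand), the urate transporter of the brush border, had 545, 403, 358, 317 and 310 CPM in HS7 replicates 1 to 5, against 668, 725, 520, 603 and 552 CPM in LS replicates 1 to 5. Only HS7 replicate 1 lay above the lowest LS library. The log2 fold change was -0.67 ± 0.13 (adjusted p = 0.00861), and it was -0.78 ± 0.15 without the low-complexity libraries (adjusted p = 0.0478), still called. Slc17a3, a voltage-driven urate and organic anion exporter, had 154, 178, 125, 147 and 150 CPM in HS7 replicates 1 to 5 and 229, 243, 220, 232 and 263 CPM in LS replicates 1 to 5, without overlap (-0.65 ± 0.18, adjusted p = 0.0469). It kept its call in 2 of 10 fits that left out a library.

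HS7 replicates 3, 4 and 5, which had the lowest segment 3 scores, also had the lowest Slc22a12 and the lowest Slc17a3 among the HS7 libraries, although Slc17a3 did not follow the order of the score among these 3. None of the 11 segment 3 markers passed the test (median -0.29). Slc7a13, an amino acid transporter of that segment, averaged 1027 ± 1201 CPM at HS7 and 2147 ± 652 CPM at LS (-1.06 ± 0.64, adjusted p = 0.371). With the score as a covariate Slc22a12 had a log2 fold change of -0.45 and stayed called (adjusted p = 0.0279), Slc2a2 had 0.59 and stayed called (adjusted p = 0.0334), while Slc7a7 had 0.48 (adjusted p = 0.0880) and Slc17a3 had -0.43 (adjusted p = 0.192). Over all genes, the covariate left 179 calls, 121 of them among the 341.

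Among the metabolic genes listed the calls were few. Gstp1 (ENSRNOG00000018237, chromosome 1, 219291679 to 219294147, minus strand), a glutathione transferase and target of NRF2, had 137, 136, 71.4, 78.4 and 87.7 CPM in HS7 replicates 1 to 5, against 184, 225, 248, 255 and 145 CPM in LS replicates 1 to 5. The groups did not overlap, and the log2 fold change was -1.05 ± 0.17 (adjusted p = 0.00199). It was called in all 10 fits that left out a library, with the segment 3 covariate (-0.90, adjusted p = 0.0111) and with quality weights (adjusted p = 0.0193), but not without the low-complexity libraries (-0.75 ± 0.20, adjusted p = 0.158). Gstp1 was the only called member of the 29 listed antioxidant and NRF2 target genes, whose median was -0.031, where 2.25% of all genes tested were called. Outside the list, the aldehyde reductase gene Akr7a3 averaged 555 ± 189 CPM at HS7 and 888 ± 69.9 CPM at LS (-0.68 ± 0.15, adjusted p = 0.0182). It was also called with quality weights (adjusted p = 0.0240), but not without the low-complexity libraries (adjusted p = 0.164). The glucuronidation gene Ugt1a8 was called lower as well (-0.47 ± 0.10, adjusted p = 0.0158). Gclm, of glutathione synthesis, averaged 709 ± 491 CPM at HS7 and 1327 ± 371 CPM at LS (-0.91 ± 0.35, adjusted p = 0.140).

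Of 33 genes of amino acid, arginine and creatine metabolism 3 fell and none rose (median -0.0056), where 1.07% of all genes tested fell. Haao, of the kynurenine pathway, averaged 251 ± 67.6 CPM at HS7 and 375 ± 45.6 CPM at LS (-0.58 ± 0.15, adjusted p = 0.0385). Hgd, of tyrosine breakdown, averaged 247 ± 73.0 and 353 ± 33.7 CPM (-0.52 ± 0.14, adjusted p = 0.0463), and Gamt, the last enzyme of creatine synthesis, 113 ± 30.4 and 165 ± 20.9 CPM (-0.55 ± 0.15, adjusted p = 0.0490). Each kept its call in 3 of 10 fits that left out a library and lost it with the segment 3 covariate. None of 32 nuclear genes of complex I, 38 of complexes II to V, 11 mitochondrially encoded genes, 24 of the tricarboxylic acid cycle and 25 of glycolysis and gluconeogenesis was called, and their medians lay between -0.018 and 0.041. Of 31 fatty acid oxidation genes only Echs1 was called, where 2.25% of all genes tested were called. Its value rests on LS replicate 2 (74.3 CPM, against 1.597 to 2.19 CPM in the other LS libraries and 1.198 to 3.35 CPM at HS7).

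Genes of salt transport beyond the proximal tubule did not pass the test. None of 12 thick ascending limb genes was called (median -0.18), with Slc12a1, the cotransporter blocked by loop diuretics, at 413 ± 153 CPM at HS7 and 633 ± 176 CPM at LS (-0.61 ± 0.19, adjusted p = 0.0710). None of 16 distal convoluted tubule and WNK genes and none of 18 principal cell and sodium channel genes was called, with medians of 0.037 and 0.035. The thiazide-sensitive cotransporter gene Slc12a3 averaged 506 ± 182 CPM at HS7 and 425 ± 80.0 CPM at LS (0.25 ± 0.19, adjusted p = 0.508), and the sodium channel gene Scnn1a 58.6 ± 13.3 and 68.3 ± 20.6 CPM (-0.22 ± 0.17, adjusted p = 0.521).

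**Figure D4:**
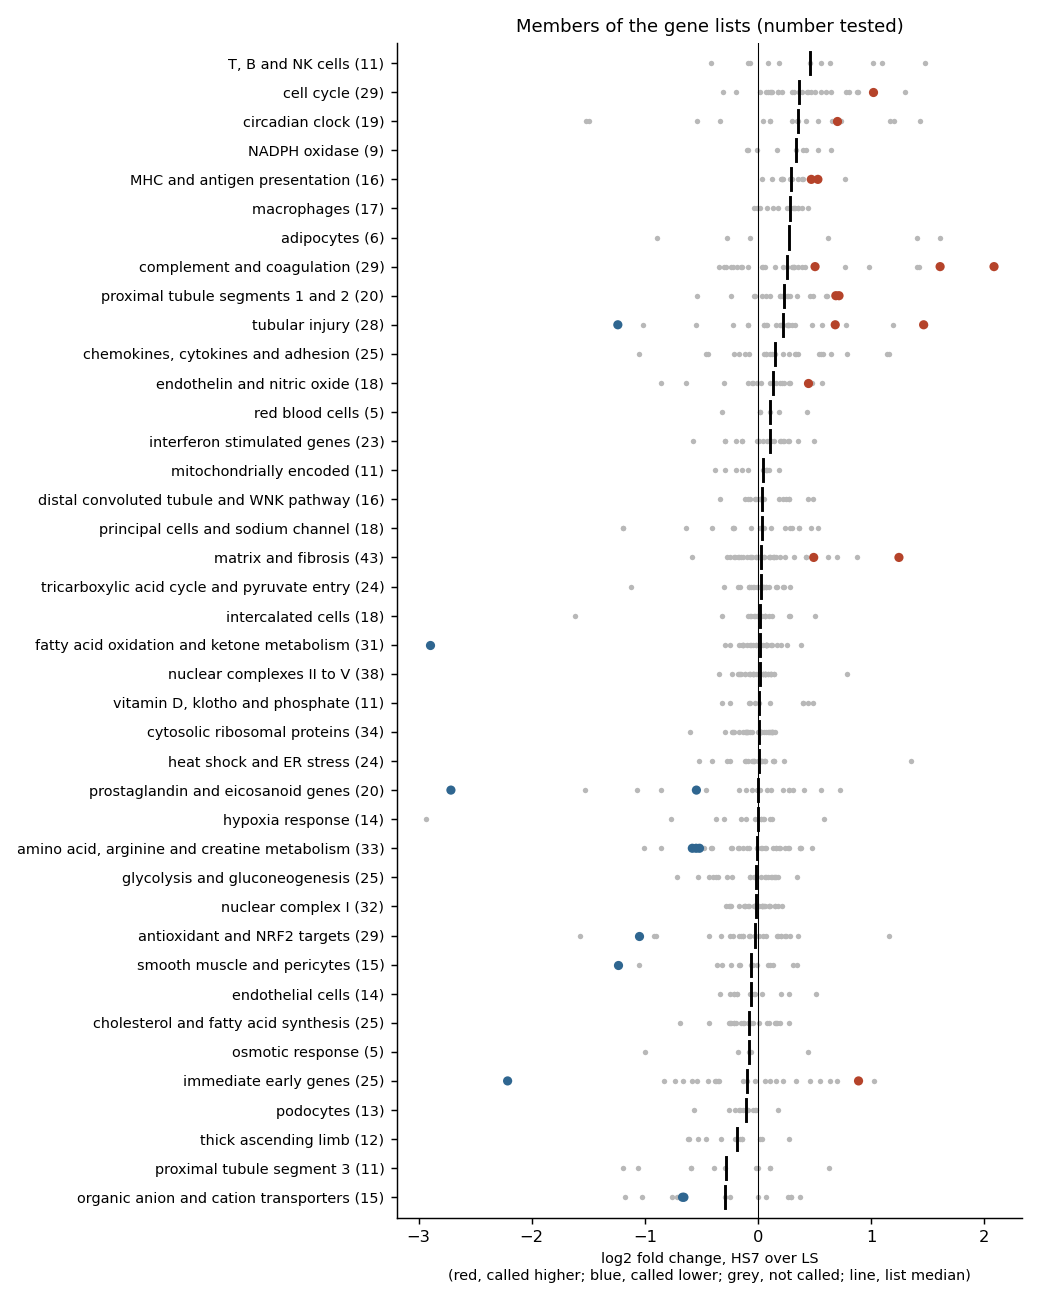
Log2 fold change of HS7 over LS for the tested members of the gene lists shown, each with at least 5 tested members and their number in brackets; red points were called higher, blue points called lower, grey points were not called, and black lines are list medians. The median was -0.29 for organic anion and cation transporters and 0.46 for lymphocyte genes. Complement, with 3 of 29 called higher, holds the most calls in that direction, where 1.17% of all genes tested were called higher.

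Of 19 clock genes 1 rose and none fell, where 1.17% of all genes tested rose. The gene that rose was Nr1d2, a repressor of the clock loop, with 158, 173, 184, 190 and 169 CPM in HS7 replicates 1 to 5, against 103, 109, 101, 141 and 86.6 CPM in LS replicates 1 to 5. The groups did not overlap (0.70 ± 0.19, adjusted p = 0.0429). The output regulator gene Dbp averaged 285 ± 133 CPM at HS7 and 124 ± 66.0 CPM at LS (1.202 ± 0.46, adjusted p = 0.140), and Per3 46.5 ± 8.33 and 28.5 ± 6.27 CPM without overlap (0.71 ± 0.31, adjusted p = 0.20). The activator genes had negative values and did not pass the test: Npas2 averaged 5.24 ± 2.35 CPM at HS7 and 14.9 ± 5.93 CPM at LS (-1.52 ± 0.47, adjusted p = 0.0700), and Arntl 8.52 ± 6.20 and 23.7 ± 12.2 CPM (-1.49 ± 0.65, adjusted p = 0.195). The hour at which tissue was taken is not given in the sources used here, and its part in these values was not tested.

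Of 25 immediate early genes 1 rose and 1 fell, where 1.17% of all genes tested rose and 1.07% fell. Zfp36, whose product destabilises cytokine transcripts, averaged 78.8 ± 25.0 CPM at HS7 and 42.6 ± 8.49 CPM at LS (0.89 ± 0.22, adjusted p = 0.0286). The nuclear receptor gene Nr4a3 averaged 0.87 ± 0.745 CPM at HS7 and 4.01 ± 4.75 CPM at LS (-2.21 ± 0.58, adjusted p = 0.0384), with 12.4 CPM in LS replicate 4 and a log2 fold change of 0.07 without the low-complexity libraries. Of 43 matrix and fibrosis genes 2 rose and none fell (median 0.031), where 1.17% of all genes tested rose. Thbs1, the gene of thrombospondin 1, averaged 109 ± 20.9 CPM at HS7 and 77.8 ± 10.96 CPM at LS (0.49 ± 0.13, adjusted p = 0.0483). Col8a1, a collagen of vessel walls, had 3.21, 5.32, 3.20, 4.57 and 8.74 CPM in HS7 replicates 1 to 5 and 1.47, 3.00, 2.60, 0.903 and 2.56 CPM in LS replicates 1 to 5, without overlap (1.25 ± 0.34, adjusted p = 0.0498). Of the 10 fits that left out a library, 9 still called Cyp4a2, 8 Zfp36, 7 RT1-Da, 5 Col8a1, 4 each Clu, Krt19, RT1-Bb and Mcm6, and 3 each Nr1d2 and Thbs1. Of 15 smooth muscle and pericyte genes 1 fell, where 1.07% of all genes tested fell. It was Sncg, with 2.93 ± 1.54 CPM at HS7 and 6.96 ± 0.841 CPM at LS (-1.24 ± 0.27, adjusted p = 0.0156).

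Nox4, the gene targeted in the NOX4 line, was not called between the diets in SS. It had 256, 454, 530, 454 and 434 CPM in HS7 replicates 1 to 5, against 288, 334, 274, 251 and 439 CPM in LS replicates 1 to 5. The groups overlapped through HS7 replicate 1 and LS replicate 5 (0.42 ± 0.15, adjusted p = 0.0992). NOX4 cortex held 65.3 ± 2.51 CPM at HS7 and 66.5 ± 9.14 CPM at LS. None of 9 tested NADPH oxidase genes passed the test (median 0.34). Cybb, the catalytic subunit of the phagocyte oxidase, averaged 71.8 ± 17.9 CPM at HS7 and 46.0 ± 12.8 CPM at LS (0.64 ± 0.22, adjusted p = 0.0932), and Cyba, the membrane partner of both enzymes, 149 ± 42.5 and 118 ± 24.3 CPM (0.34 ± 0.19, adjusted p = 0.327).

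Rab32 (ENSRNOG00000014258, chromosome 1, 4637491 to 4653210, minus strand), a small GTPase of lysosome-related organelles and mitochondria, had 51.0, 49.8, 52.9, 56.4 and 56.2 CPM in HS7 replicates 1 to 5, against 32.7, 42.3, 34.0, 33.1 and 38.1 CPM in LS replicates 1 to 5. HS7 lay above LS without overlap, and the log2 fold change was 0.56 ± 0.07 (adjusted p = 0.000185). Without the low-complexity libraries it was 0.58 ± 0.09 (adjusted p = 0.0200). Map2k6, the kinase that activates p38, had 16.3, 11.9, 14.4, 23.2 and 12.9 CPM in HS7 replicates 1 to 5 and 7.19, 6.53, 5.12, 5.35 and 7.81 CPM in LS replicates 1 to 5, also without overlap (1.295 ± 0.19, adjusted p = 0.00125). Its log2 fold change was 0.79 ± 0.24 without the low-complexity libraries (adjusted p = 0.193). Kctd15, a BTB-domain protein gene, averaged 20.3 and 29.96 CPM at HS7 and LS (-0.56 ± 0.09, adjusted p = 0.00405).

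Among genes of at least 1 CPM in either group, the 12 highest log2 fold changes of called genes ran from 1.88 (Lrtm2) to 4.21 (Yif1b) and the 12 lowest from -2.43 (Hrc) to -4.38 (Tbcb). Yif1b, of transport from the endoplasmic reticulum, had 16.2, 22.4, 2.93, 18.6 and 2.11 CPM in HS7 replicates 1 to 5 and at most 1.61 CPM at LS. Reg3g, an antimicrobial lectin gene, had 5.67, 1.21, 1.16, 2.59 and 2.68 CPM in HS7 replicates 1 to 5 and at most 0.628 CPM at LS (3.47 ± 0.79, adjusted p = 0.0203). The tubulin cofactor gene Tbcb had 24.6 and 21.0 CPM in LS replicates 1 and 4 and at most 0.838 CPM in the other 8 libraries, and Grcc10 39.2 CPM in LS replicate 5 and at most 0.912 CPM in the other 9. The other genes at these ends were Hist3h2ba, Lrriq4, Grik4, Wfikkn2, Gng4, Kctd19, Pcdhb12, C4b and Cdhr1 among the highest and Muc13, Katnal1, Ccl9, Echs1, Ccdc109b, Gucy2d, Ccdc162, Ptgs2 and Dcst1 among the lowest.

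**Figure D5:**
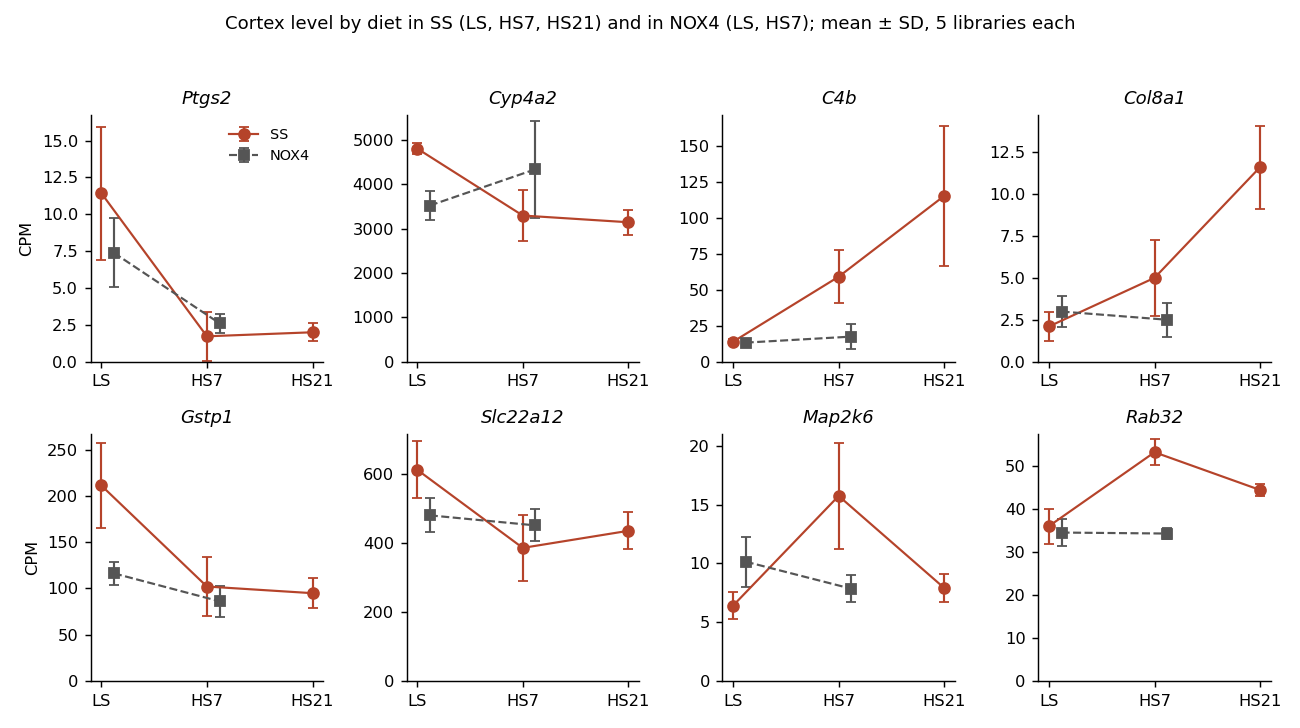
Mean CPM ± SD (5 libraries each) of 8 genes in cortex by diet, with SS in red at LS, HS7 and HS21 and NOX4 in grey at LS and HS7. Map2k6 and Rab32 have their highest mean in SS at HS7 (15.7 and 53.3 CPM), while C4b and Col8a1 have theirs at HS21 (115 and 11.6 CPM).

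The diet effect at HS7 was tested against that in the NOX4 line, as the SS change minus the NOX4 change. This called 2 genes (0.0132%), Map2k6 at 1.67 ± 0.27 (adjusted p = 0.0112) and Rab32 at 0.57 ± 0.10 (adjusted p = 0.0319). In NOX4 cortex Map2k6 averaged 7.84 ± 1.15 CPM at HS7 and 10.1 ± 2.12 CPM at LS, and Rab32 34.3 ± 1.38 and 34.6 ± 3.04 CPM. Neither difference was called without the low-complexity libraries, all of which are SS libraries, nor with the segment 3 covariate. HS7 against LS within NOX4 called 0 of 15179 genes in edgeR, with log2 fold changes of -1.50 ± 0.51 for Ptgs2 and 0.40 ± 0.35 for C4b. The differences between the strains for these genes were -1.21 ± 0.73 and 1.68 ± 0.49, with adjusted p of 0.498 and 0.172, and so were not called.

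Between tissues of SS rats, the cortex change minus the outer medulla change called 0 of 15212 genes in edgeR, with 1479 at an unadjusted p under 0.05, while limma voom called 11 and DESeq2 32. Outer medulla itself had 7 called genes (0.046%). Havcr1 was among them, at 2.24 ± 0.30 (adjusted p = 0.00357), beside 1.47 ± 0.44 in cortex, and the difference was -0.75 ± 0.40 (adjusted p = 0.575). In outer medulla the median log2 fold change was 2.31 for markers of proximal tubule segments 1 and 2 and 1.71 for those of segment 3. Over all genes tested it was 0.0122. The part of tissue composition in the outer medulla value of Havcr1 was not tested. Gstp1 had 0.46 ± 0.21 in outer medulla (adjusted p = 0.319), and its cortex change differed from that by -1.50 ± 0.31 (adjusted p = 0.202), not called.

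At 21 days, 2499 of 15179 genes were called against LS (16.5%) and 1404 against HS7 (9.25%). The comparisons with LS share the same LS libraries, so their values are given side by side only. C4b averaged 115 ± 48.6 CPM at HS21, with a log2 fold change of 0.96 ± 0.33 over HS7 (adjusted p = 0.0629), and Clu 464 ± 88.5 CPM, with 0.74 ± 0.18 over HS7 (adjusted p = 0.00875). Col8a1 averaged 11.6 ± 2.47 CPM, also above HS7 (1.22 ± 0.33, adjusted p = 0.0190). Ptgs2 averaged 2.00 ± 0.603 CPM and Gstp1 94.9 ± 15.9 CPM at HS21, and neither was called against HS7 (adjusted p = 0.855 and 0.738). Other genes were closer to LS at 21 days than at 7. They were named for their difference at HS7, and HS21 against HS7 uses those same HS7 libraries. A mean nearer to LS at HS21 can follow from that choice alone, so these adjusted p-values are no separate test of a return. Map2k6 averaged 7.90 ± 1.16 CPM at HS21 (-0.99 ± 0.19 against HS7, adjusted p = 0.00234), Kctd15 27.7 ± 3.43 CPM (0.44 ± 0.09, adjusted p = 0.00494), Rab32 44.5 ± 1.33 CPM (-0.26 ± 0.07, adjusted p = 0.0207) and Nr1d2 113 ± 23.5 CPM (-0.63 ± 0.19, adjusted p = 0.0306).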

How the data were processed

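Poly(A) RNA-seq gene counts of the 30 cortex libraries, and of 20 SS libraries for the tissue comparison, were used as the authors deposited them in 1 table of 32545 genes. Per the submitters' processing notes HISAT2 2.0.5, StringTie 1.3.3b and featureCounts 1.5.0-p3 were used; the genome build is not given in the sources used here, and coordinates are those of the deposited table. The authors also deposited FPKM, a scaled signal per group, a log2 fold change and p-values for this comparison, whose tool is not given in the sources used here; the deposited log2 values and p-values are quoted only where named as such, and 50 columns of per-sample values were not used.

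Counts were filtered with filterByExpr, scaled by TMM and fitted with 1 coefficient per group in edgeR 4.0.16 (24 residual degrees of freedom), with a quasi-likelihood F test and Benjamini-Hochberg adjustment under R 4.3.3. The SE is the log2 fold change over the root of F. CPM use TMM-scaled library sizes. Alternatives used limma 3.58.1, DESeq2 1.42.0, other filters and scaling, a replicate block, fewer libraries and covariates. The scripts were tested on simulated counts. The cortex totals of 12.6 to 29.6 M counts limit what can be seen in genes near 1 CPM, and intervals cover no more than the spread between libraries.

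Named genes are the called genes with a symbol and at least 1 CPM in either group that had the 12 highest or 12 lowest log2 fold changes or the 6 smallest p-values, up to 4 called members of each list, Nox4, the called interactions, and values of up to 3 abundant members of lists without a call. Other genes were named after their values were seen. The 42 lists hold 901 entries, of which 870 matched a gene; the rest were not analysed here. The members and lists were chosen with earlier results of these data known. Some genes that the rule names are not reported here.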

Additional observations from a re-analysis of the deposited data

Results flagged for a closer look

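In a group of 5 libraries, a value was singled out when its gap to the nearest library, over the whole range of the group, exceeded 0.71. This held for 13 of 114 groups examined. The cutoff is passed by about 1 in 20 groups of normally distributed values. Most groups examined were of genes named for their values in these libraries, so that rate does not apply to this count. Among HS7 libraries, replicate 1 had 6.34 CPM of Lrriq4 (0 to 0.806 CPM in the others), 4.33 CPM of Pcdhb12 (0.607 to 1.52 CPM) and 6.34 CPM of Cdhr1 (1.27 to 2.59 CPM). HS7 replicate 2 had 0.806 CPM of Muc13 (0 to 0.211 CPM in the others), and HS7 replicate 3 had 19.3 M counts in all (12.6 to 14.2 M counts).

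Among LS libraries, replicate 2 stood apart for Hist3h2ba at 0.3 CPM (0 to 0.0625 CPM in the others), for Ccl9 at 6.76 CPM (1.06 to 1.94 CPM) and for Echs1 at 74.3 CPM (1.6 to 2.19 CPM). LS replicate 3 had 2.88 CPM of Gucy2d (0.419 to 0.833 CPM), and LS replicate 4 had 12.4 CPM of Nr4a3 (0.628 to 2.88 CPM). LS replicate 5 had 39.2 CPM of Grcc10 (0.14 to 0.912 CPM), 5.5 CPM of Sncg (7.12 to 7.66 CPM) and 255 CPM of RT1-Da (175 to 196 CPM).

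The day 7 change in SS cortex differed from that in NOX4 cortex, by the interaction term, for Map2k6 (1.67 on the log2 scale) and Rab32 (0.573).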

How the results depend on the processing

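Against 341 calls, the count was 1 with the compared groups only, 6 with limma voom and quality weights, 937 with DESeq2, 13 without the low-complexity libraries and 179 with the segment 3 covariate, and ran from 190 to 819 when 1 library was left out. With DESeq2's size factors in edgeR it was 362, split 175 higher and 187 lower, with a filter of 1 CPM in 5 libraries 355, without a filter 247, and with low-complexity status as a covariate, chosen after seeing the data, 314. The SS minus NOX4 difference had 2 calls as reported, 1 without a filter, 0 with the compared groups only (1265 at an unadjusted p under 0.05), 1 with limma voom, 98 with DESeq2, 1 without the low-complexity libraries, 0 with the segment 3 covariate and 1 to 27 with 1 library left out. The tissue difference had 0 as reported, 2 without a filter, 11 with limma voom, 32 with DESeq2 and 0 to 1 with 1 library left out. With 1 library left out, the HS7 minus LS difference ran from -1.3 to 0.395 M counts in totals, from -158 to 705 in genes at 10 M counts and from -0.019 to 0.886 percentage points in mitochondrial share. The log2 fold change of Echs1 ran from -3.19 to 0.185 with 1 library left out, the highest without LS replicate 2, and that of Nr4a3 0.0745 without the low-complexity libraries. Same-numbered HS7 and LS libraries correlated in their deviations at -0.13 to 0.177, and so few pairs cannot show whether the numbers pair them. Same-numbered cortex and outer medulla libraries correlated at -0.0675 to 0.18. The tissue test took these as independent, and with a block for each diet and number it also had 0 calls. For HS7 against LS in cortex a replicate block gave 377 calls, 296 of them shared. The causes of these differences were not tested.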

Other observations

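Among the 98 genes called whichever library was left out, several belong to none of the lists described so far. Those given here were picked after their values were seen. Errfi1, a feedback inhibitor of the epidermal growth factor receptor, averaged 635 ± 200 CPM at HS7 and 292 ± 44.9 CPM at LS without overlap (log2 fold change 1.123 ± 0.24, adjusted p = 0.0156 in edgeR's quasi-likelihood test). Nfkb1, a subunit of NF-kappa-B, averaged 87.2 ± 3.69 CPM at HS7 and 68.0 ± 3.58 CPM at LS, also without overlap (0.36 ± 0.07, adjusted p = 0.00751). Itgb6, an epithelial integrin subunit, averaged 104 ± 21.8 CPM at HS7 and 68.3 ± 9.15 CPM at LS (0.60 ± 0.11, adjusted p = 0.00761), and it was still called without the low-complexity libraries (adjusted p = 0.0420). Errfi1 and Nfkb1 were not called without them (adjusted p = 0.230 and 0.193), nor in limma voom with quality weights (adjusted p = 0.139 and 0.0998).

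Tfrc, the transferrin receptor gene, fell, with 43.7 ± 13.4 CPM at HS7 and 78.0 ± 4.61 CPM at LS and no overlap (-0.84 ± 0.18, adjusted p = 0.0165). Cdt1, which licenses replication origins, rose, with 5.76 CPM at HS7 and 1.75 CPM at LS (1.72 ± 0.33, adjusted p = 0.00854). Car4, the membrane carbonic anhydrase of the proximal tubule, also rose, with 92.0 CPM at HS7 and 51.6 CPM at LS (0.83 ± 0.19, adjusted p = 0.0194).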
